A study of Mus musculus with 8 samples.

Results

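The genes described here encode the nuclear subunits of the mitochondrial respiratory chain and ATP synthase, followed across fetal liver and adult bone marrow and across Col18a1 genotype. They were chosen by symbol alone (Ndufa, Ndufb, Ndufc, Ndufs, Ndufv, Uqcr and Atp5 stems, Sdha to Sdhd, and the Cox4 to Cox8 stems), and each was read from its brightest probe set among those naming a single gene. This gave 90 of the 18194 genes so measured. They comprised 36 genes of complex I, 4 of complex II, 8 of complex III, 17 of complex IV, 17 of ATP synthase (complex V) and 8 complex I assembly factors (Ndufaf), which share the stem but are not part of the finished enzyme. Ndufa4 and Ndufa4l2 were counted with complex I by symbol, although the Ndufa4 protein is now assigned to complex IV. Of the 90 genes, 86 reached 5 on the log2 intensity scale on at least 2 arrays and were tested. Ndufb4 (mean 4.10 over the 8 arrays), Cox4i2, Cox7b2 and Cox8b did not and are given only by level. Other probe sets of Ndufb4 also named Ndufb4b and Ndufb4c and were not used, so its level here may not stand for the gene. Ndufa11 and Ndufs6 were named only by probe sets shared with other genes, and Cox7b was not analysed here.

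The arrays held total RNA from unsorted single-cell suspensions of blood-forming tissue. Mice of 2 genotypes on the C57B6/J strain were used, Col18a1-/- (knockout), which lack the collagen XVIII gene, and Col18a1+/+ (wild-type). There were 4 groups of 2 arrays each: knockout fetal liver, wild-type fetal liver, knockout bone marrow and wild-type bone marrow. Fetal liver came from embryos at embryonic day 14.5 of unstated sex, and bone marrow was flushed from the long bones of the hind limb of males aged 3 months. Each array carried RNA pooled from 2 littermates, so the p-values measure the spread between pools. Tissue cannot be told apart from developmental age in this design.

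Complexes I to IV pass electrons from NADH and succinate to oxygen and pump protons across the inner mitochondrial membrane, and ATP synthase uses the resulting gradient to make ATP. Complex II pumps no protons and also belongs to the tricarboxylic acid cycle. All 90 chosen genes are nuclear, whereas the most hydrophobic core subunits of complexes I, III, IV and V come from mitochondrial DNA. Fetal liver at mid-gestation is a site of red cell production and holds immature hepatocytes, while adult marrow is rich in granulocytes.

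Array medians of the deposited intensity ran from 40.8 to 42.6. Marker genes separated the tissues by label. All 9 hepatocyte markers tested were higher in fetal liver, and all 11 neutrophil and all 7 B lineage markers were lower there, in both genotypes (limma, adjusted over all genes). Of all genes, 36.6% in knockout and 39.2% in wild-type were higher, and 27.1% and 26.8% lower. Alb, Afp, Fgb, Fga and Ahsg lay below the filter level of 5 on every marrow array, and Ebf1 on every fetal liver array. These genes had to differ, so their calls are not read as a test. The hepatocyte list averaged 12.21 to 12.41 per array in fetal liver and 4.48 to 4.75 in bone marrow (log2 intensity), and the neutrophil list 8.13 to 8.52 in fetal liver and 12.60 to 12.67 in bone marrow. Erythroid markers averaged 11.56 to 11.76 per array in fetal liver and 11.58 to 11.67 in bone marrow, but single markers moved both ways. Of 10 tested, 3 were higher and 1 lower in knockout fetal liver, and 2 higher and 3 lower in wild-type fetal liver (limma). Col18a1 stood at 8.17 and 8.06 in knockout against 9.06 and 9.18 in wild-type fetal liver, and at 5.63 and 5.99 in knockout against 7.84 and 7.85 in wild-type bone marrow. The fetal liver pools differed in sex-linked transcripts. Xist stood at 4.97 and 4.77 in knockout against 11.04 and 11.22 in wild-type fetal liver, and the Y-linked Eif2s3y at 9.38 and 9.42 in knockout against 3.29 and 3.00 in wild-type fetal liver. All 4 marrow pools, from males, stood at 4.61 to 5.03 for Xist and 9.38 to 10.03 for Eif2s3y. Genotype and the sex of the pools therefore cannot be told apart in fetal liver, nor tissue and sex in the wild-type arrays, and the interaction of tissue and genotype shares this limit.

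Promoter sequences are shown for 5 genes, with and without a difference between the tissues, because nuclear respiratory genes are known for shared binding motifs of NRF1 and of the ETS factor GABP. Each line gives the 250 bases before the annotated transcript start, 5′ to 3′ in the direction of the gene, from RefSeq (GRCm38.p6), with motif matches in capitals, some of which read as the motif on the other strand.
Ndufa5, chr6:24527691-24527940, minus strand: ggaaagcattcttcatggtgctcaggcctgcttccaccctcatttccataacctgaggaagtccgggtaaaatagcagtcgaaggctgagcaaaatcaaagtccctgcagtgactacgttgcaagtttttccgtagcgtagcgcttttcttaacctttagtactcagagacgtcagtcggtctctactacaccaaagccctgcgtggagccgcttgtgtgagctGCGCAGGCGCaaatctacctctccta
Uqcr11, chr10:80406822-80407071, minus strand: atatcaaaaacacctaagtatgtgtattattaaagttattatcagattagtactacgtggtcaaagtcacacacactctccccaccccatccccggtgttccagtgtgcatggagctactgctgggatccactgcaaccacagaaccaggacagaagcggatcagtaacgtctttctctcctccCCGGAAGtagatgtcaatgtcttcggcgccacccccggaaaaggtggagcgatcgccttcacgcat
Atp5g2, chr15:102671048-102671297, minus strand: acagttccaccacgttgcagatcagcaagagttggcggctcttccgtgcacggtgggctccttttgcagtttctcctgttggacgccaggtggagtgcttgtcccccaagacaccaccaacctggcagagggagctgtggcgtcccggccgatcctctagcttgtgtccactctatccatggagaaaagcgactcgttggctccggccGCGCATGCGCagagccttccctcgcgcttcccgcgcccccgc
Cox6a1, chr5:115348959-115349208, minus strand: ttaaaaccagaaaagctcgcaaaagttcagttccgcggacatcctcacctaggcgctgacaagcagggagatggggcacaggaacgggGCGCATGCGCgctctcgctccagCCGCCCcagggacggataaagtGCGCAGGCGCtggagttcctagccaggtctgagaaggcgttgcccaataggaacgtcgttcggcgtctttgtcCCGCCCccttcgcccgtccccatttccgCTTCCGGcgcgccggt
Cox7a2l, chr17:83514334-83514583, minus strand: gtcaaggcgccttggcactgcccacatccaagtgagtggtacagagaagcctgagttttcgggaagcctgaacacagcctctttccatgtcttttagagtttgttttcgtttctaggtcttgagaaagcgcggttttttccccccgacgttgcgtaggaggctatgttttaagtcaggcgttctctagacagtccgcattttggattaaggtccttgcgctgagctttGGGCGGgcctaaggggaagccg

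The Ndufa5 line has an NRF1 match (the letters GCGCA, any base, then GCGC) that begins at -26 from the start, and the Atp5g2 line has one at -42. The Uqcr11 line holds an ETS match (CCGGAAG) at -66. The Cox6a1 line holds NRF1 matches at -162 and -117, GC boxes (GGGCGG, the SP1 motif) at -139 and -44, and an ETS match at -16. The Cox7a2l line holds a GC box at -22 and no match to the NRF1 or ETS letters. RefSeq windows of 250 bases before and 50 after the start were found for 74 of the 90 genes, as 79 windows, and were searched on both strands, where a base could belong to matches of more than 1 motif. NRF1 matches occurred in 22.8% of these windows and in 4.60% of all 32851 promoter windows. ETS matches occurred in 24.1% of the respiratory windows and in 8.86% of all windows. GC boxes lay in 45.6% of the respiratory windows against 35.7% of all, YY1 matches (AAGATGGCG) in 8.86% against 1.40%, and matches to the core letters of the estrogen-related receptor motif (AAGGTCA) in 10.1% against 4.72%. An NRF1 or ETS match lay in 12.6% of all windows. By complex, it lay in 10 of 34 windows of complex I, 3 of 3 of complex II, 3 of 5 of complex III, 3 of 12 of complex IV and 10 of 18 of ATP synthase. These shares describe the letters and were not tested.

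The first question was how respiratory gene expression differed between fetal liver and bone marrow. Most of the genes were higher in fetal liver, by modest amounts, and the excess was largest for complex III and for the assembly factors of complex I. In knockout arrays, 45 of the 86 genes rose and 6 fell (limma, adjusted p under 0.05), which is 52.3% and 6.98%. The tissues differ widely, and over all 13136 genes tested 63.8% were called, 36.6% higher and 27.1% lower. The median difference of the respiratory genes was 0.28 on the log2 scale, against 0.11 for all genes. In wild-type arrays, which share no array with the knockout comparison, 51 rose and 6 fell (59.3% and 6.98%), where 65.9% of all genes were called, 39.2% higher and 26.8% lower. The median there was 0.35, against 0.14 for all genes. Both comparisons called 41 genes higher and 5 lower. A further 5 were called in knockout only, 11 in wild-type only and 24 in neither. Averaged over genotypes, 58 rose and 7 fell, where 74.3% of all genes were called, 44.2% higher and 30.2% lower. No interaction of tissue and genotype passed the threshold for any of the 86 genes (limma; 0.0914% of all genes were called, and 4 of the 86 had an unadjusted p under 0.05, where 15.7% of all genes did), so the calls in 1 genotype only are not shown to differ.

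Since these are whole tissues, fewer cells of a type and less RNA per cell cannot be told apart. Some signs of RNA quality moved with tissue as well. The ratio of 3′ to 5′ control probe sets for Gapdh lay at 2.51 to 3.62 in fetal liver and 1.40 to 1.72 in bone marrow. For beta-actin it lay at 2.74 to 3.47 in fetal liver and 1.54 to 1.66 in bone marrow. For the transferrin receptor the tissues overlapped, at 1.44 to 1.78 in fetal liver and 1.22 to 1.54 in bone marrow. Neither the hepatocyte and granulocyte content nor these ratios were tested for their part in the tissue differences. The call survived leaving out each array in turn for 37 of the 45 genes higher in knockout fetal liver and for 38 of the 51 higher in wild-type fetal liver. Other probe sets of the same genes mattered too. Of 61 further probe sets with a mean of 7 or more, 53 had the sign of the brightest one in wild-type arrays, and 43 lay within 0.3 of it. In knockout arrays fewer of them had the sign of the brightest one. Probe sets of Atp5pb (-0.09), Cox7a2 (-0.02), Ndufa7 (-0.14) and Ndufs8 (-0.16, -0.14 and -0.04) were opposite to it in knockout but not in wild-type. With the mean of all probe sets and with an _at probe set first, the call held for 32 of the 45 genes higher in knockout. In wild-type it held for 41 of the 51.

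**Figure D1:**
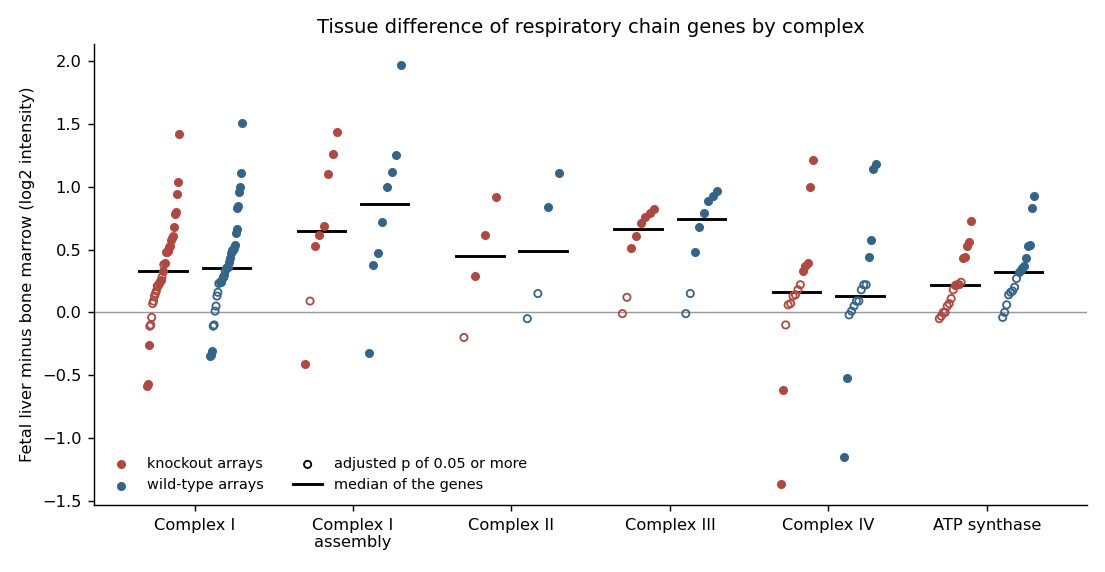
Each point is 1 gene, placed by its fetal liver minus bone marrow difference (log2 intensity) in knockout arrays (red, left) and wild-type arrays (blue, right), by complex. Filled points passed the threshold of limma, and black lines mark the medians, which run from 0.13 for complex IV to 0.86 for the complex I assembly factors in wild-type arrays.

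Complex I, the NADH dehydrogenase, had 19 genes higher and 3 lower of 35 tested in knockout arrays and 23 higher and 3 lower in wild-type arrays. The medians were 0.33 in knockout and 0.35 in wild-type. The higher genes made up 54.3% in knockout and 65.7% in wild-type, where 36.6% and 39.2% of all genes were higher. The lower genes made up 8.57% in both, where 27.1% and 26.8% of all genes were lower. The largest difference in complex I belonged to Ndufa5, an accessory subunit of the matrix arm. In knockout arrays Ndufa5 stood at 11.51 and 11.40 in fetal liver against 10.01 and 10.05 in bone marrow, and in wild-type arrays at 11.55 and 11.56 in fetal liver against 10.14 and 9.95 in bone marrow. All 4 fetal liver arrays lay more than 1 log2 unit above all 4 marrow arrays, a difference of 1.42 ± 0.10 (SE) in knockout and 1.51 ± 0.10 in wild-type (limma, adjusted p = 2.86e-06 and 1.90e-06). A dimmer Ndufa5 probe set gave 0.83 in knockout and 1.10 in wild-type.

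Several core subunits of complex I were higher in fetal liver, by varying amounts. Ndufs7, which holds the last iron-sulfur cluster before ubiquinone, stood in knockout arrays at 11.90 and 11.83 in fetal liver against 10.79 and 10.86 in bone marrow, and in wild-type arrays at 11.76 and 11.95 in fetal liver against 10.97 and 10.73 in bone marrow. Its difference was 1.04 ± 0.11 (SE) in knockout, with a 95% interval of 0.75 to 1.26 in wild-type (limma, adjusted p = 5.10e-05 and 5.81e-05), and the tissues did not overlap. Ndufv1, the flavin subunit at which NADH is oxidised, rose by 0.78 ± 0.09 in knockout and 0.83 ± 0.09 in wild-type, and Ndufs3, a core subunit without a cluster, by 0.80 ± 0.09 in knockout and 0.85 ± 0.09 in wild-type. Ndufs1, the largest iron-sulfur subunit, rose less, by 0.33 ± 0.09 in knockout and 0.47 ± 0.09 in wild-type, and its knockout call was lost without knockout bone marrow replicate 2 (0.27). Ndufv2 and Ndufs8 passed the threshold in wild-type only, at 0.28 and 0.24, and lost it when single wild-type arrays were left out, although other Ndufv2 probe sets gave 0.72 and 0.96 in knockout and 0.81 and 0.89 in wild-type. Ndufb8, of the membrane arm, rose by 0.94 ± 0.12 in knockout and 1.11 ± 0.12 in wild-type. A far dimmer Ndufb8 probe set ending in _at, at 5.97 to 6.78 over the arrays, gave 0.13 in knockout and 0.59 in wild-type.

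Of the complex I genes, 3 were lower in fetal liver in each genotype. Ndufa1, an X-linked accessory subunit, stood in knockout arrays at 12.33 and 12.32 in fetal liver against 12.56 and 12.60 in bone marrow, and in wild-type arrays at 12.23 and 12.20 in fetal liver against 12.56 in both bone marrow pools. The tissues did not overlap, and the difference was -0.26 ± 0.08 in knockout and -0.35 ± 0.08 in wild-type (SE; limma, adjusted p = 0.0234 and 0.00530). The knockout call was lost when either knockout bone marrow array was left out. Ndufb1, a small accessory subunit of the membrane arm, differed by -0.57 ± 0.11 in knockout and -0.31 ± 0.11 in wild-type, and the wild-type call was lost when any 1 wild-type array was left out. Ndufa3 was called in wild-type only, at -0.34 ± 0.09, and without wild-type fetal liver replicate 1 or wild-type bone marrow replicate 2 it was not called. Ndufs4, whose loss in mice models Leigh syndrome, was called in knockout only, at -0.59 ± 0.10 against -0.11 ± 0.10 in wild-type. A second Ndufs4 probe set gave 0.74 in knockout and 0.98 in wild-type, so its direction depends on the probe set.

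The complex I assembly factors, 8 in number and all tested, had larger median differences than the complex I subunits, a gap that was not tested. In knockout arrays 6 rose and 1 fell, with a median of 0.65, and in wild-type arrays 7 rose and 1 fell, with a median of 0.86. The higher genes made up 75.0% in knockout and 87.5% in wild-type, where 36.6% and 39.2% of all genes were higher. Ndufaf6, which acts in early assembly, stood in knockout arrays at 8.02 and 8.25 in fetal liver against 6.70 in both bone marrow pools, and in wild-type arrays at 8.62 and 8.58 in fetal liver against 6.66 and 6.59 in bone marrow. This difference of 1.44 ± 0.10 in knockout and 1.97 ± 0.10 in wild-type was the largest of the 86 genes in both genotypes (SE; limma, adjusted p = 3.11e-06 and 3.98e-07). Ndufaf4, a partner of Ndufaf3 in early assembly, rose by 1.26 ± 0.13 in knockout and 1.12 ± 0.13 in wild-type. Ndufaf2, a chaperone of late assembly, rose by 1.10 ± 0.11 in knockout and 1.25 ± 0.11 in wild-type. Ndufaf5, the hydroxylase that modifies the Ndufs7 protein, rose by 0.62 ± 0.13 in knockout (95% interval 0.32 to 0.92) and also in wild-type (interval 0.71 to 1.30). Ndufaf3 was the exception, at -0.41 ± 0.12 in knockout and -0.32 ± 0.12 in wild-type, and it missed the threshold in each genotype when single arrays of that genotype were left out.

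In succinate dehydrogenase, complex II, both membrane anchors were higher in fetal liver, and the catalytic subunits differed less on their brightest probe sets. Sdhc, an anchor, stood in knockout arrays at 9.84 and 9.78 in fetal liver against 8.85 and 8.92 in bone marrow, and in wild-type arrays at 9.97 and 9.95 in fetal liver against 8.90 and 8.79 in bone marrow. The gap was 0.92 ± 0.09 in knockout and 1.11 ± 0.09 in wild-type (SE; limma, adjusted p = 2.26e-05 and 6.49e-06), but a second Sdhc probe set gave 0.17 in knockout and 0.15 in wild-type. Sdhd, the other anchor, rose by 0.62 ± 0.10 in knockout and 0.84 ± 0.10 in wild-type, and its second probe set gave 1.25 and 1.30. Sdha, the flavoprotein that oxidises succinate, differed by 0.29 ± 0.10 in knockout (adjusted p = 0.0326, limma) and 0.15 ± 0.10 in wild-type (0.224), and the knockout call was lost when any 1 of 4 arrays was left out (knockout fetal liver replicate 1, knockout bone marrow replicate 2 or either wild-type bone marrow array). A second Sdha probe set gave 0.37 in knockout and 0.44 in wild-type. Sdhb, the iron-sulfur subunit, differed by -0.20 ± 0.09 in knockout and -0.05 ± 0.09 in wild-type and was not called.

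In complex III, which passes electrons from ubiquinol to cytochrome c, 6 of 8 genes rose in both genotypes and none fell. The higher genes made up 75.0%, where 36.6% of all genes in knockout and 39.2% in wild-type were higher. The medians of complex III were 0.66 in knockout and 0.74 in wild-type. Uqcrc1, a core subunit, stood in knockout arrays at 11.35 and 11.37 in fetal liver against 10.69 and 10.61 in bone marrow, and in wild-type arrays at 11.38 and 11.46 in fetal liver against 10.55 and 10.51 in bone marrow. The tissues were clearly apart, by 0.71 ± 0.09 in knockout and 0.89 ± 0.09 in wild-type (SE; limma, adjusted p = 0.000111 and 2.43e-05). The other core subunit, Uqcrc2, rose by 0.61 ± 0.11 in knockout and 0.48 ± 0.11 in wild-type, and its second probe set gave 0.17 in knockout and 0.43 in wild-type. Small subunits of the complex also rose: Uqcr10 by 0.79 ± 0.10 in both genotypes, Uqcr11 by 0.76 ± 0.12 in knockout and 0.93 ± 0.12 in wild-type, and Uqcrq by 0.82 ± 0.09 in knockout and 0.97 ± 0.09 in wild-type. The 3 dimmer probe sets of Uqcrq gave 0.03, -0.14 and 0.23 in knockout and 0.63, -0.16 and 0.41 in wild-type. They lay at 4.23 to 6.11 over the arrays, near the filter level of 5, so little is read from them. Uqcrb rose by 0.51 ± 0.10 in knockout and 0.68 ± 0.10 in wild-type on its brightest probe set and differed by -0.34 and -0.18 on another. The Rieske iron-sulfur protein gene Uqcrfs1 differed by 0.12 ± 0.09 in knockout and 0.15 ± 0.09 in wild-type, and the hinge protein gene Uqcrh by -0.01 ± 0.09 in both, neither being called.

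Complex IV, cytochrome c oxidase, had the smallest median difference, 0.16 in knockout and 0.13 in wild-type, against 0.11 and 0.14 for all genes. Of its 14 tested genes, 5 rose and 2 fell in knockout arrays, and 4 rose and 2 fell in wild-type arrays. The higher genes made up 35.7% in knockout and 28.6% in wild-type, where 36.6% and 39.2% of all genes were higher. The lower genes made up 14.3% in both genotypes, where 27.1% and 26.8% of all genes were lower. Cox7a1 stands among the higher genes, although it passed the filter through fetal liver alone and had to differ. Subunits made in most tissues differed from each other in their calls. Cox7a2 rose by 0.39 in knockout and 0.44 in wild-type. Cox5b (0.33 in knockout, 0.22 in wild-type) and Cox6b1 (0.37 in knockout, 0.22 in wild-type) were called in knockout only, and Cox7c was called in wild-type only (0.14 in knockout, 0.58 in wild-type). Cox4i1 was called in neither. It stood in knockout arrays at 13.34 and 13.04 in fetal liver against 12.99 and 13.03 in bone marrow, and in wild-type arrays at 12.99 and 13.06 in fetal liver against 13.00 and 13.03 in bone marrow. In wild-type arrays the tissues overlapped (0.01 ± 0.11, 95% interval -0.24 to 0.26). Cox6a1 was not called either, at 0.07 ± 0.09 in knockout and 0.05 ± 0.09 in wild-type. Cox5a differed by 0.22 ± 0.09 in knockout and 0.09 ± 0.09 in wild-type and was not called.

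Isoforms known for a restricted tissue distribution were measured as well. Cox6a2, the isoform of heart and skeletal muscle, was lower in fetal liver. In knockout arrays Cox6a2 stood at 5.94 and 5.68 in fetal liver against 7.19 and 7.17 in bone marrow, and in wild-type arrays at 5.97 and 5.87 in fetal liver against 6.90 and 7.25 in bone marrow. The difference was -1.37 ± 0.14 in knockout and -1.15 ± 0.14 in wild-type (SE; limma, adjusted p = 2.87e-05 and 7.96e-05). Cox7a1 is also a heart and muscle isoform. In knockout arrays Cox7a1 stood at 5.49 and 5.60 in fetal liver against 4.31 and 4.35 in bone marrow, and in wild-type arrays at 5.51 and 5.45 in fetal liver against 4.48 and 4.12 in bone marrow. It passed the filter level of 5 through its fetal liver arrays alone, so it had to differ. Its calls stand in the counts, but no difference is read from them. It was the only one of the 86 genes to pass through 1 tissue alone. Cox6b2, known from testis, rose, with a 95% interval of 0.73 to 1.26 in knockout and 0.88 to 1.41 in wild-type.

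No marker of skeletal muscle was called beside these isoforms. Of 8 such markers on the array, 4 passed the filter and 0 were called between tissues in either genotype (limma; 0 had an unadjusted p under 0.05), and their mean over all 8 lay at 4.82 to 5.03 in fetal liver and 4.77 to 4.89 in bone marrow. Of 7 adipocyte markers, 5 were measured and 2 passed the filter. Adipoq stood at 2.83 to 3.46 in fetal liver and 8.87 to 9.80 in bone marrow, and Fabp4 at 8.35 to 9.34 in fetal liver and 8.68 to 9.66 in bone marrow. The mean over the 5 lay at 4.47 to 4.75 in fetal liver and 5.67 to 6.06 in bone marrow, while Ucp1 and Cidea, of brown fat, lay between 3.81 and 4.13 on all arrays. The part of fat cells in the Cox6a2 difference was not tested. Cox8c differed by 0.13 in knockout and 0.09 in wild-type, and Ndufa4l2, the hypoxia-linked relative of Ndufa4, by 0.28 and 0.16, and neither was called. Cox4i2, Cox7b2 and Cox8b averaged 4.59, 2.96 and 4.74 over the 8 arrays and were not tested.

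**Figure D2:**
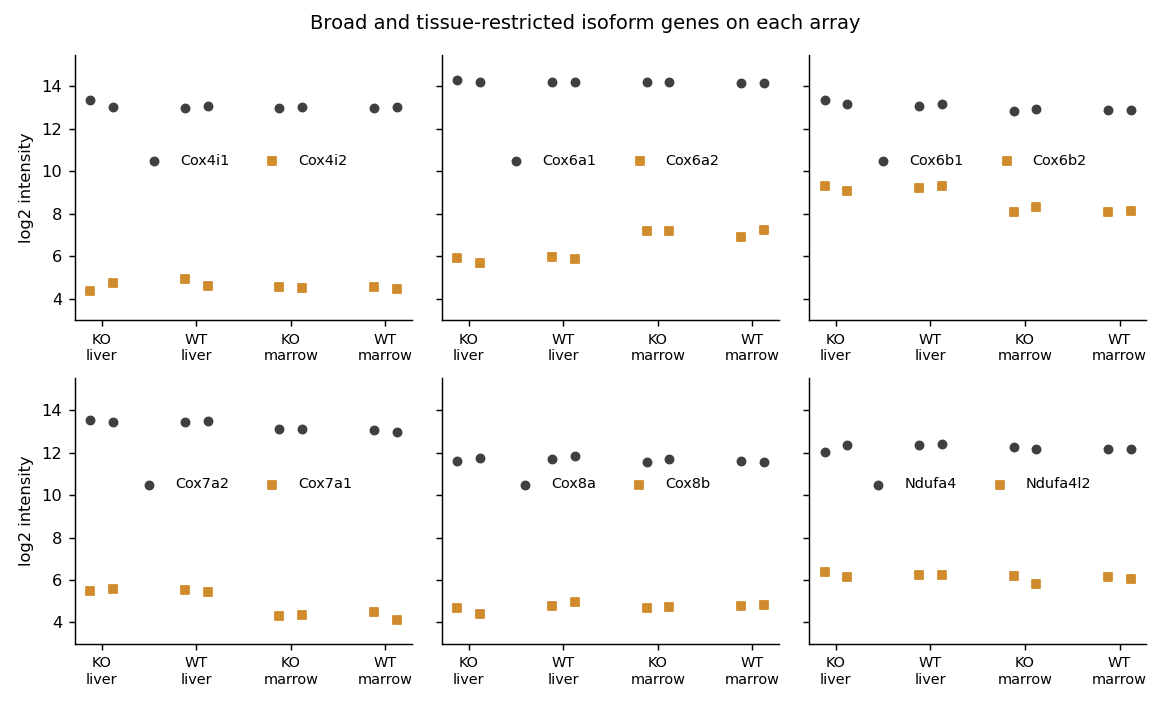
Each panel gives the log2 intensity of a broadly made subunit gene (grey circles) and of its restricted relative (orange squares) on the 8 arrays, fetal liver left of bone marrow and knockout left of wild-type. Cox6a2 lies lower in all 4 fetal liver arrays (5.68 to 5.97) and Cox6b2 lies higher, Cox7a1 lies below the filter level of 5 in bone marrow, and levels of different probe sets cannot be set against each other.

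Cox7a2l was lower in fetal liver as well. It encodes the factor that joins complexes III and IV into supercomplexes, and C57BL/6 mice are known to carry a shortened form of it. In knockout arrays Cox7a2l stood at 10.53 and 10.60 in fetal liver against 11.25 and 11.11 in bone marrow, and in wild-type arrays at 10.39 and 10.53 in fetal liver against 10.91 and 11.04 in bone marrow. All 4 fetal liver arrays lay below all marrow arrays, by 0.62 ± 0.10 in knockout and 0.52 ± 0.10 in wild-type (SE of the log2 difference; limma, adjusted p = 0.000711 and 0.00188). The other probe sets of Cox7a2l gave -0.45 and -0.50 in knockout and -0.53 on each in wild-type. Its relative Cox7a2 rose by 0.39 ± 0.09 in knockout and 0.44 ± 0.09 in wild-type, with -0.02 on another probe set in knockout.

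ATP synthase had 6 genes higher and 0 lower of 17 in knockout arrays, and 9 higher and 0 lower in wild-type arrays, with medians of 0.22 in knockout and 0.32 in wild-type. The higher genes made up 35.3% in knockout, where 36.6% of all genes were higher, and 52.9% in wild-type, where 39.2% were (limma; at an unadjusted p under 0.05, 7 genes differed in knockout, where 67.3% of all genes did, and 9 in wild-type, where 68.9% did). The 3 genes for subunit c, which encode the same mature rotor protein, gave different values. Atp5g1 stood in knockout arrays at 11.13 and 11.46 in fetal liver against 10.58 and 10.56 in bone marrow, and in wild-type arrays at 11.45 and 11.52 in fetal liver against 10.64 and 10.67 in bone marrow. Atp5g3 stood in knockout arrays at 13.58 and 13.60 in fetal liver against 13.13 and 13.17 in bone marrow, and in wild-type arrays at 13.53 and 13.60 in fetal liver against 13.12 and 13.14 in bone marrow. Atp5g1 rose by 0.73 ± 0.11 in knockout and 0.83 ± 0.11 in wild-type and Atp5g3 by 0.44 ± 0.08 and 0.43 ± 0.08, whereas Atp5g2 differed by 0.07 ± 0.08 and 0.06 ± 0.08 and was not called (95% interval -0.14 to 0.25 in wild-type). The differences between these 3 genes were not tested.

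Subunits of the catalytic head of ATP synthase differed by varying amounts on their brightest probe sets. Atp5a1 (alpha) differed by 0.11 ± 0.09 in knockout and 0.34 ± 0.09 in wild-type, Atp5b (beta) by 0.22 ± 0.10 and 0.35 ± 0.10, and both were called in wild-type only, a call lost without wild-type bone marrow replicate 1. Other Atp5a1 probe sets gave 0.50 and 0.89 in knockout and 0.28 and 0.93 in wild-type. Atp5c1, the rotor shaft, was not called, at -0.03 ± 0.09 in knockout and 0.14 ± 0.09 in wild-type. Atp5d (delta) rose by 0.53 ± 0.08 in both genotypes. Atp5md, a small membrane subunit tied to dimer formation, rose by 0.56 ± 0.13 in knockout and 0.93 ± 0.13 in wild-type.

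Lists of genes that serve the chain were counted beside the 36.6% of all genes called higher in knockout and 39.2% in wild-type. Of 33 other assembly factors tested, 23 rose and 3 fell in knockout arrays and 27 rose and 1 fell in wild-type arrays. For coenzyme Q synthesis, 10 of 12 genes rose in each genotype, 1 falling in knockout and 0 in wild-type, and Coq8b, an atypical kinase of that pathway, rose by 1.49 in knockout and 1.34 in wild-type. In the tricarboxylic acid cycle and pyruvate dehydrogenase list 14 of 18 rose in knockout and 13 in wild-type. Dlat, the E2 subunit of pyruvate dehydrogenase, rose by 1.48 in knockout and 1.81 in wild-type. Mitochondrial import and membrane genes rose in 17 of 21 cases in both genotypes. Of 9 electron carriers and other subunits tested, 4 rose and 1 fell in knockout, and 6 rose and 1 fell in wild-type. ND5, the only mitochondrially encoded subunit found by name, was not called, at 0.31 in knockout and 0.25 in wild-type.

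Regulators of respiration moved both ways, 9 of 19 rising (47.4%) and 4 falling (21.1%) in each genotype. Of all genes 36.6% in knockout and 39.2% in wild-type were higher, and 27.1% and 26.8% lower. Ppargc1a, the coactivator PGC-1α, averaged 6.82 in knockout fetal liver against 4.44 in knockout bone marrow, and 6.73 in wild-type fetal liver against 3.97 in wild-type bone marrow. Ppara, a nuclear receptor of liver fat oxidation, averaged 6.46 in knockout fetal liver against 4.33 in knockout bone marrow, and 6.38 in wild-type fetal liver against 4.47 in wild-type bone marrow. Their marrow means lay below the filter level of 5, so both genes passed the filter through fetal liver. They stand in the counts of the 19 regulators, but neither a call nor a size is read from their differences. Tfam, which packages mitochondrial DNA, rose by 0.57 in knockout and 0.63 in wild-type. The transcript of Nrf1 itself differed by -0.72 in knockout and -0.89 in wild-type, and Gabpb2 by -0.88 and -1.07. An NRF1 or ETS match lay in 41.7% of the 36 windows of genes higher in both genotypes, in 63.2% of the 19 windows of genes called in neither and in 0 of the 4 windows of genes lower in both. Of all promoter windows, 12.6% held such a match. A relation between motif and tissue call was not tested.

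**Figure D3:**
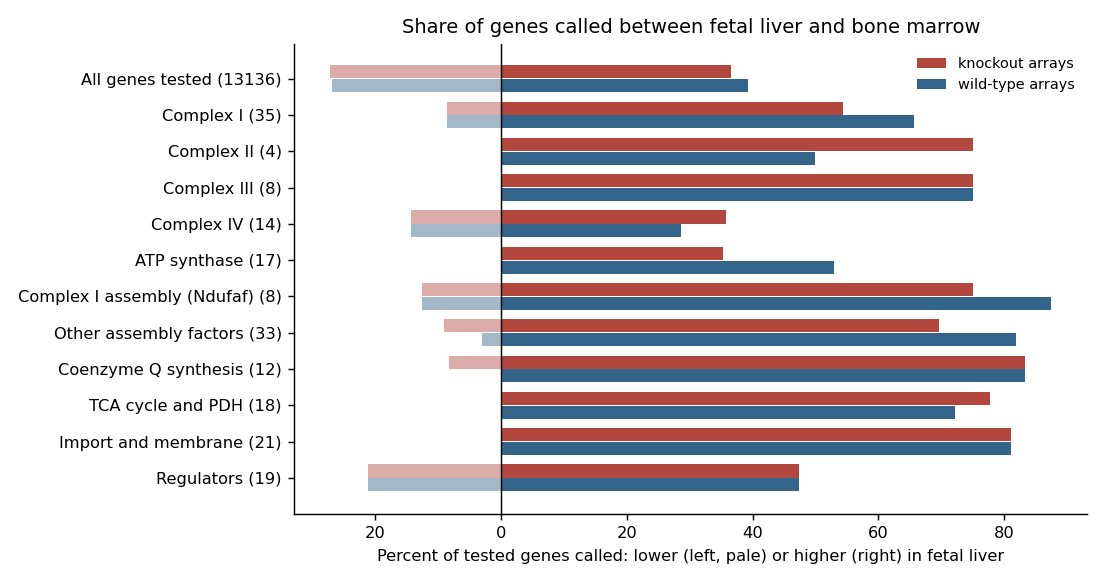
Bars give the percent of tested genes called higher (right, solid) or lower (left, pale) in fetal liver against bone marrow, in knockout (red) and wild-type (blue) arrays, with the number tested in parentheses. Complex III reaches 75.0% higher in both genotypes and complex IV 35.7% in knockout and 28.6% in wild-type, against 36.6% and 39.2% of all genes.

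The second question was whether loss of collagen XVIII changed these genes. In bone marrow none of the 86 genes was called between knockout and wild-type (limma; 0.411% of all genes were called), and 1 had an unadjusted p under 0.05, where 6.74% of all genes did. Differences ran from -0.16 to 0.28 on the log2 scale, and the 95% intervals of all 86 lay within -0.46 to 0.57. The gene with the unadjusted p was Atp5a1, which stood at 12.49 and 12.34 in knockout and 12.12 and 12.15 in wild-type bone marrow. The pools did not overlap, and the difference was 0.28 ± 0.09 (SE; limma, adjusted p = 0.538), with 0.07 and 0.00 on its other probe sets. By complex, the medians were -0.02 for complex I, 0.08 for complex II, -0.04 for complex III, 0.05 for complex IV and 0.01 for ATP synthase. In the same arrays, 8 of 9 megakaryocyte markers were lower in knockout marrow (limma).

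In fetal liver, too, 0 of the 86 genes were called (limma; 0.320% of all genes were called), and 13 had an unadjusted p under 0.05, where 22.0% of all genes did. Differences ran from -0.56 to 0.32. Ndufaf6, the gene nearest to the threshold, stood at 8.02 and 8.25 in knockout and 8.62 and 8.58 in wild-type fetal liver. It did not overlap between genotypes and differed by -0.46 ± 0.10 (SE; limma, adjusted p = 0.0923). Ndufs4 stood at 8.84 and 8.97 in knockout and 9.33 on both wild-type arrays, a difference of -0.42 ± 0.10 (limma, adjusted p = 0.0999), with -0.17 on its second probe set. Sdha had the largest positive difference, 11.39 and 11.26 in knockout and 10.95 and 11.06 in wild-type fetal liver (0.32 ± 0.10; limma, adjusted p = 0.133), with 0.05 on its second probe set. Arrays of the genotypes did not overlap for 28 genes lower and 14 genes higher in knockout, where 30.2% and 19.9% of all genes behaved so.

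Averaged over both tissues, 0 of the 86 genes were called between genotypes (limma; 0.198% of all genes were called), and 7 had an unadjusted p under 0.05, where 14.1% of all genes did. The medians in fetal liver were 0.00 for complex I, -0.11 for complex II, -0.07 for complex III, 0.04 for complex IV, -0.04 for ATP synthase and -0.15 for the assembly factors, against -0.03 for all genes. The interaction came nearest for Ndufaf6, at -0.54 ± 0.14 (SE; limma, adjusted p = 0.178), and for Ndufs4, at -0.47 ± 0.14 (limma, adjusted p = 0.223).

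**Figure D4:**
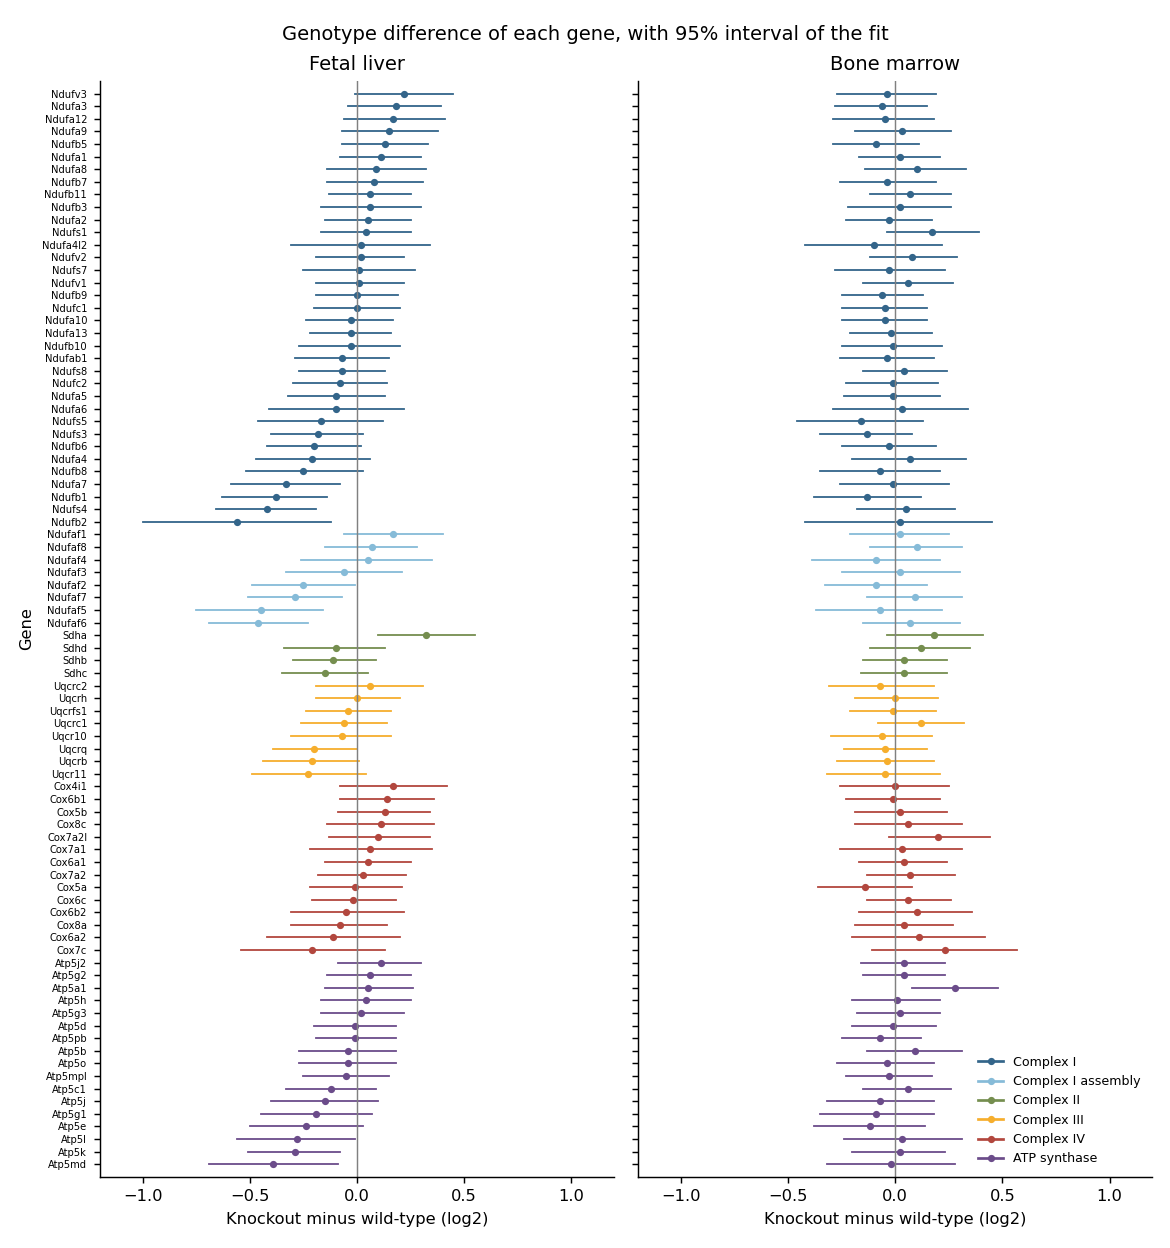
Points give the knockout minus wild-type difference (log2 intensity) of each of the 86 genes in fetal liver (left) and bone marrow (right), with bars for the 95% interval of the fit, coloured by complex. Points run from -0.56 to 0.32 in fetal liver and from -0.16 to 0.28 in bone marrow, and no gene passed the threshold in either tissue.

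Gaps between the pools of a group were widest in knockout fetal liver, with a median size of 0.13 over the 86 genes, against 0.06 in each of the other groups. A gap above 0.2 separated the pools for 25 of the 86 genes in knockout fetal liver and 1 in wild-type fetal liver, and for 7 in knockout and 8 in wild-type bone marrow. Over all genes the shares with such a gap were 37.4% in knockout and 28.2% in wild-type fetal liver, and 20.9% in knockout and 18.3% in wild-type bone marrow. Replicate 1 was the lower pool in knockout fetal liver for 16 of 17 ATP synthase genes, 16 of 35 complex I genes and 6293 of all 13136 genes. The widest gap was that of Ndufb2, a membrane arm subunit, at 10.91 and 11.58 in knockout against 11.86 and 11.75 in wild-type fetal liver (-0.56 ± 0.19, SE; limma, adjusted p = 0.156).

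Other settings called few genes by genotype. Without knockout fetal liver replicate 2, 4 genes were called lower in knockout fetal liver, where 5.72% of all genes were: Ndufb2 (-0.89), Ndufaf6 (-0.58), Atp5l (-0.45) and Atp5md (-0.59), with adjusted p from 0.0214 to 0.0429 (limma). Without replicate 1 there were 0. A variance model with a trend and robust fitting called 3 lower, Ndufs4 (-0.42), Ndufaf6 (-0.46) and Atp5k (-0.29), where 1.99% of all genes were called lower (limma, adjusted p = 0.0408, 0.0447 and 0.0492).

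**Figure D5:**
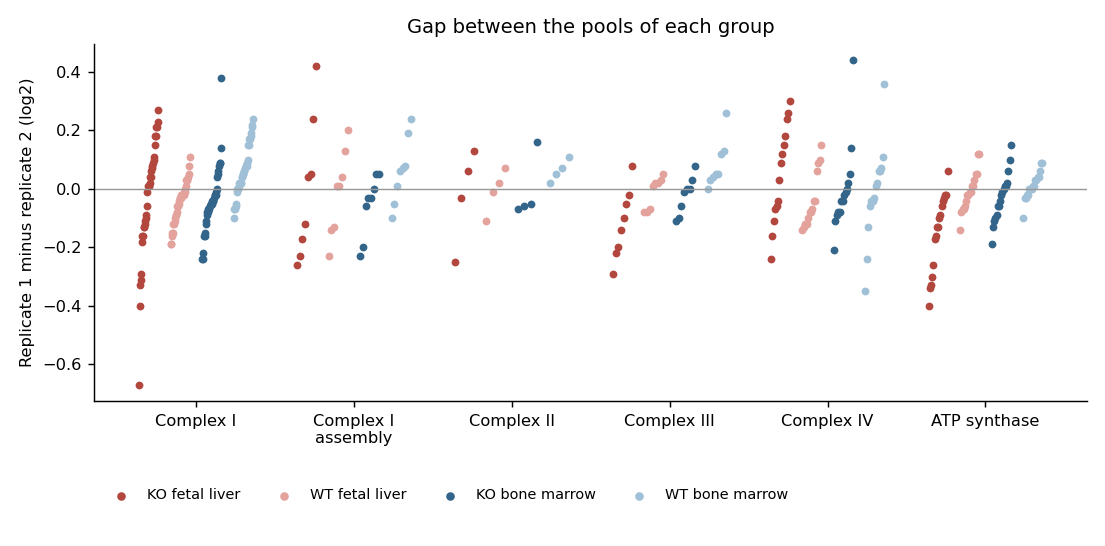
Each point is 1 gene, placed by the difference between replicate 1 and replicate 2 (log2 intensity) within a group, by complex, with groups in the order knockout fetal liver, wild-type fetal liver, knockout bone marrow and wild-type bone marrow. The knockout fetal liver points spread the most, down to -0.66 for Ndufb2, and lie mostly below 0 for ATP synthase.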

How the data were processed

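Total RNA from 8 pools was hybridised to Affymetrix mouse expression arrays. Each of 45101 probe sets has 1 deposited linear intensity per array, which the authors made with RMA, per the submitters' processing notes (version not given in the sources used here). RMA makes array distributions alike and compresses dim differences. The log2 of the deposited intensity was taken here. Platform annotation named 1 gene for 34958 probe sets, several for 932 and none for 9211. The brightest probe set stood for each gene.

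All arrays entered a single limma 3.58.1 fit in R 4.3.3 with group means as coefficients (4 residual and 4.48 prior degrees of freedom). It covered the 13136 genes with 2 or more arrays at a log2 level of 5, with two-sided p-values adjusted by Benjamini-Hochberg at 0.05. The fit was tested on simulated data. Fold differences are in log2 units, fetal liver minus bone marrow or knockout minus wild-type. The number of arrays limits the precision. Genes were named by a rule on complex, moderated t and isoform lists, and Adipoq, Fabp4, Ucp1, Cidea and Tfam after their values were seen. The members and lists were chosen with earlier results of these data known. Alternatives covered filter, probe set choice, scaling, variance model, array weights, replicate block, arrays fitted, threshold and each array left out. The main fit did not pair arrays by replicate number.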

Additional observations from a re-analysis of the deposited data

How the results depend on the processing

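The counts of respiratory genes called between tissues kept within 1.5 times of their values under every alternative run, and with each array left out in turn they were 43 to 54 in knockout, 45 to 62 in wild-type and 58 to 67 averaged over genotypes. Genotype counts stayed at 0 except in fetal liver, with 3 under a trend and robust variance and 0 to 4 with each array left out; counts were 0 to 0 in bone marrow, averaged over tissues and for the interaction. The tissue counts join genes called higher and lower, so a steady count does not show that directions held. With an _at probe set first, the difference changed sign for 6 genes called in knockout and 5 called in wild-type, named below. With the brightest probe set, 36.6% of all genes were called higher in knockout and 39.2% in wild-type, and 27.1% and 26.8% lower. With an _at probe set taken first, 32 of 85 respiratory genes rose and 13 fell in knockout, and 40 rose and 9 fell in wild-type. Fewer thus rose and more fell than with the brightest probe set, where 45 of 86 rose and 6 fell in knockout, and 51 rose and 6 fell in wild-type. The share of all genes called with an _at probe set first is not given here, so no excess over all genes is read from these counts. With that choice the respiratory median was smaller, at 0.18 in knockout and 0.24 in wild-type, against 0.28 and 0.35 with the brightest probe set. Among the genes called with the brightest probe set, differences changed sign then for Ndufa12 (-1.48 in knockout, -1.26 in wild-type), Ndufb5 (-0.14, -0.03), Uqcrb (-0.34, -0.18), Cox5b (-0.20), Cox7a2 (-0.02) and Atp5pb (-0.09) in knockout, and Ndufb2 (-0.21) and Cox7c (-0.27) in wild-type; genes not called could change sign as well, such as Ndufb9 in knockout (-0.35). The mean of all probe sets gave -0.02 in knockout and -0.10 in wild-type for Ndufa12. The _at probe set of Ndufa12 lay below the filter level of 5 on every fetal liver array and above it on every marrow array. It had to differ, so no reversal is read from it or from a mean that includes it. The brighter Ndufa12 probe sets were all higher in fetal liver in both genotypes. The _at probe sets used for Cox5b, Cox7c and Ndufb2 lay below 7 on every array. The cause of the other sign changes was not tested. The median of all genes in wild-type was 0.14, 0.19 with arrays centred and -0.01 after another quantile step, and that of the respiratory genes 0.35, 0.40 and 0.34.

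Over all genes, 42 were called by genotype in fetal liver, but 14 with no filter, 87 with a filter at 7, 409 with a trend, 9 with array weights, 4 with a replicate block, 4 from these arrays alone and 5 at 0.01. Bone marrow had 54, but 97 with a trend, 109 with weights, 34 with a block, 3 from its arrays alone and 9 at 0.01. The average had 26, but 49 with a filter at 7, 43 centred, 92 with a trend, 11 with weights, 8 with a block, 7 at 0.01 and 12 without chromosomes X and Y. The interaction had 12, but 5 with no filter, 25 with a filter at 7, 68 with a trend, 6 with weights, 6 with a block, 5 at 0.01 and 1 without X and Y. With each array left out these counts ran from 5 to 1010, 2 to 76, 7 to 171 and 5 to 80 in that order (1010 without knockout fetal liver replicate 2), and tissue counts from 7070 to 8375 in knockout, 7392 to 8972 in wild-type and 9085 to 9730 averaged. The averaged and interaction contrasts have no fit from their arrays alone, since they use all 8. Where 1 array remained in a group, it was assumed to vary like the others. The gaps between replicate 1 and replicate 2, not the expression levels, correlated between genotypes at -0.0617 in fetal liver and -0.00356 in bone marrow. These values gave no sign of a pairing by replicate number. With the replicate block the respiratory counts were 42 in knockout and 41 in wild-type. Centring of the respiratory median and the counts without single fetal liver arrays were added after the data were seen.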
